A study of Rattus norvegicus with 9 samples.

Results

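The 10 genes described here belong to the bone morphogenetic protein (BMP) pathway: the ligands Bmp2, Bmp4 and Bmp7, the secreted antagonists Grem1 and Sostdc1, the inhibitory Smads Smad6 and Smad7, and the Id genes Id1, Id2 and Id3. They were chosen by name, as every array feature whose single gene symbol was one of the 10, and each had 1 feature among the 29214 on the array and was 1 of 14506 genes tested. The names were picked with earlier results of these data known. The study used a whole-transcript rat array from Affymetrix to measure RNA of cultured cells from adult Sprague Dawley rats, in 3 groups of 3 separately obtained samples, with no drug or genetic change in any group. Skin-derived precursors (SKPs), from dorsal trunk skin, were grown as floating spheres and harvested after at most a pair of passages. SKP-derived Schwann cells were SKPs plated in Schwann cell growth medium, passaged once and grown to confluence, and nerve Schwann cells were isolated from the sciatic nerve and cultured in that medium in the same way. SKPs therefore differed from both Schwann cell groups in medium and in growth as spheres as well as in cell type, and these cannot be told apart. The labels describe the 3 SKP arrays as a new analysis of earlier samples, so any batch that sets those arrays apart cannot be told apart from the group either, and they give the tissue of all 9 samples, nerve cells included, as dermis.

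BMP ligands are secreted dimers that bind type I and type II serine/threonine kinase receptors, which phosphorylate Smad1, Smad5 and Smad9. These enter the nucleus with Smad4 and switch on target genes, among them the Id genes and, as negative feedback, Smad6 and Smad7. Grem1 and Sostdc1 bind BMP ligands outside the cell and keep them from their receptors. Id proteins bind E proteins and hold them off DNA. In development, BMP signals act on neural crest, from which Schwann cells arise, and in skin on the dermal papilla and hair follicle.

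All levels are the deposited log2 expression values, on which a difference of 1 is a doubling. A gene was called changed at a Benjamini-Hochberg adjusted p below 0.05 in limma over all 14506 genes. A gene's level on this scale depends on its probes, so levels were compared between groups and not between genes. Before the results, 3 properties of the arrays bear on them. The median over all features ran from 6.20 to 6.27 on SKP arrays, from 6.33 to 6.44 on SKP-derived arrays and from 6.82 to 6.87 on nerve arrays, and the median gene was 0.46 higher in nerve Schwann cells than in SKPs. After cyclic loess normalisation, which removes such shifts between arrays, that median was -0.03, so the comparisons of the 10 genes with nerve cells are given also after loess. Pairs of nerve arrays held exactly equal values at 1560 to 1967 features, against 1 to 23 for pairs of the other 6 arrays and 0 to 2 for a nerve array with another. The median SD within a group over genes was 0.11 in nerve cells, 0.231 in SKP-derived cells and 0.226 in SKPs. The spread of nerve cells may therefore be understated, and whether their arrays were summarised apart from the others was not tested. The mean of 8 Schwann cell markers was 11.00 to 11.08 on nerve arrays, 10.20 to 11.06 on SKP-derived arrays and 5.97 to 6.40 on SKP arrays, which bears out the labels of both Schwann cell groups. The mean of 12 dermal mesenchymal markers was 10.12 to 11.58 in SKPs, 7.70 to 9.88 in SKP-derived cells and 8.14 to 9.59 in nerve cells. In RNA from whole cultures, fewer cells of a type and less RNA per cell cannot be told apart.

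Most of the 10 genes were highest in SKPs, and both Schwann cell groups had lower Bmp2, Bmp7, Grem1, Smad6, Smad7 and Id1. Sostdc1 was the exception in both, at a level far above that of SKPs, and Id2 rose in SKP-derived Schwann cells. Between SKP-derived Schwann cells and SKPs, 7 of the 10 genes fell, 2 rose and 1, Bmp4, was not called by limma. Among all genes tested in that comparison, 22.3% were called lower, 19.3% higher and 41.6% either way. The median difference of the 10 genes was -2.22, against -0.01 over all genes. After loess the counts were again 7 and 2, against 23.9% of all genes called lower and 18.6% higher. The groups did not overlap for 9 of the 10 genes, against 47.9% of all genes. Between nerve Schwann cells and SKPs, 6 fell, 1 rose and 3 were not called, against 14.9% of all genes called lower, 49.7% higher and 64.6% either way as deposited. After cyclic loess, which called 25.6% of all genes lower and 22.4% higher, the 10 genes gave the same counts of 6 and 1. The groups did not overlap for 7 of the 10, against 73.5% of all genes. Their median difference was -1.78 as deposited, against 0.46 over all genes, and -2.23 after loess, against -0.03. Because the 10 genes were picked with earlier results of these data known, these contrasts with all genes describe them and are no test of the set.

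**Figure D1:**
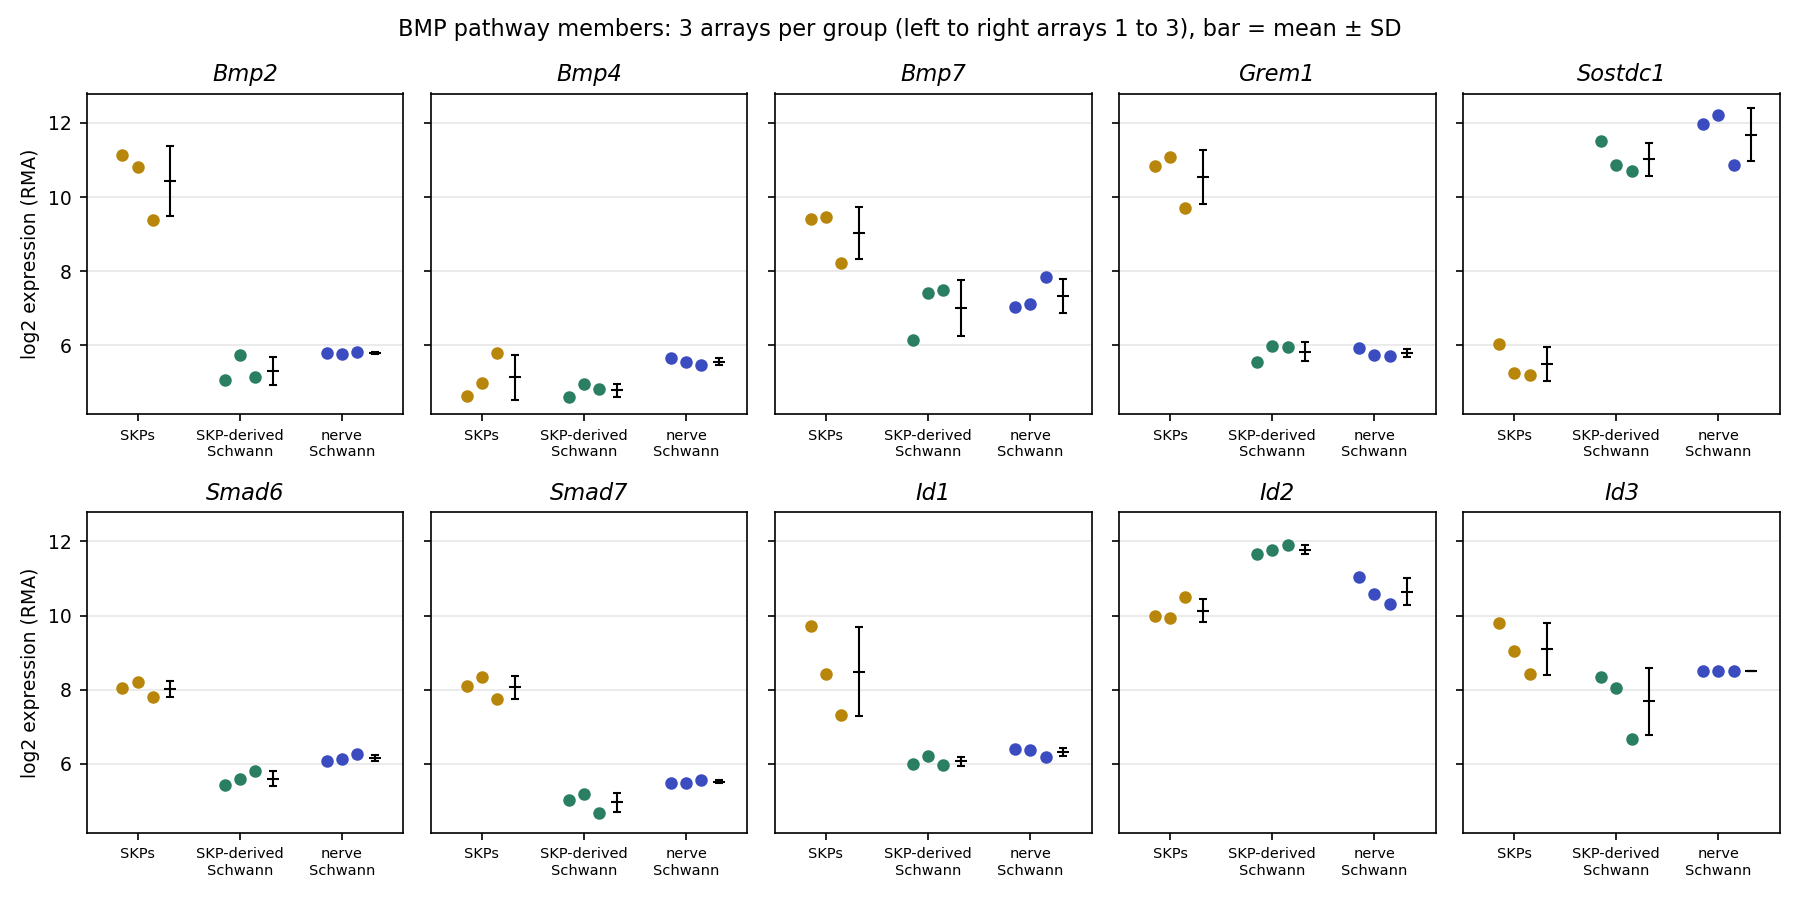
Deposited log2 expression of the 10 genes, with 1 point per array, arrays 1 to 3 from left to right in each group, and a bar for mean ± SD (n = 3). SKPs lie above both Schwann cell groups for Bmp2, Bmp7, Grem1, Smad6, Smad7 and Id1 and below both for Sostdc1, while only SKP-derived Schwann cells stand apart for Id2.

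Among the ligands, Bmp2, which drives bone and hair follicle differentiation among many processes, showed the widest gap. Its log2 levels were 11.13, 10.82 and 9.37 on the SKP arrays, 5.05, 5.73 and 5.13 on the SKP-derived arrays and 5.78, 5.75 and 5.81 on the nerve arrays. All SKP arrays lay above all Schwann cell arrays, with SKP array 3 the lowest of its group. In SKP-derived Schwann cells Bmp2 fell by 5.13 on the log2 scale (SE 0.39, limma adjusted p = 1.6e-05), a 35.1-fold lower signal. Nerve Schwann cells had a difference from SKPs of -4.66 (SE 0.39, limma adjusted p = 2.49e-05; -5.09 after loess). SKP-derived and nerve Schwann cells differed by -0.48, with a 95% confidence interval of -1.36 to 0.41 (limma adjusted p = 0.34; -0.06 after loess).

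Bmp7, a ligand with roles in kidney, eye and skin appendage development, had the same direction with a smaller gap. Its levels were 9.41, 9.45 and 8.23 in SKPs, 6.14, 7.40 and 7.48 in SKP-derived cells and 7.03, 7.12 and 7.85 in nerve cells. SKPs did not overlap either Schwann cell group, and SKP array 3 was the closest to them. Bmp7 fell by 2.02 in SKP-derived cells (SE 0.43, limma adjusted p = 0.00485) and fell by 1.70 in nerve cells (limma adjusted p = 0.00699; -2.02 after loess). The 2 Schwann cell groups overlapped and differed by -0.33 (interval -1.30 to 0.65, limma adjusted p = 0.553; 0.03 after loess).

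Bmp4, the close relative of Bmp2, had low values on every array and did not separate SKPs from Schwann cells. Its levels were 4.62, 4.99 and 5.79 in SKPs, 4.59, 4.94 and 4.81 in SKP-derived cells and 5.66, 5.56 and 5.46 in nerve cells. SKP array 3 was above all 8 other arrays, and the other SKP arrays lay among or near the SKP-derived ones. The difference was -0.35 between SKP-derived cells and SKPs (interval -0.93 to 0.23, limma adjusted p = 0.305) and 0.43 between nerve cells and SKPs (limma adjusted p = 0.172; -0.32 after loess). Without SKP array 3 the latter was 0.76 and was called (limma adjusted p = 0.00425). SKP-derived cells were called 0.78 lower than nerve cells as deposited (limma adjusted p = 0.0362), which was -0.11 after loess (limma adjusted p = 0.852).

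The antagonists moved in opposite directions. Grem1, a secreted cystine-knot protein that sequesters BMP2, BMP4 and BMP7, had levels of 10.83, 11.09 and 9.71 in SKPs, 5.54, 5.99 and 5.94 in SKP-derived cells and 5.93, 5.73 and 5.72 in nerve cells. Every SKP array was above every Schwann cell array, as for Bmp2, and SKP array 3 was again the lowest of its group. Grem1 fell by 4.72 in SKP-derived cells (SE 0.31, limma adjusted p = 8.13e-06), a 26.3-fold lower signal, and fell by 4.75 in nerve cells (limma adjusted p = 7.12e-06; -5.14 after loess), 26.9-fold lower. The Schwann cell groups differed by 0.03, with an interval of -0.67 to 0.74 (limma adjusted p = 0.935; 0.43 after loess).

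Sostdc1 encodes a secreted antagonist of BMP and Wnt signals also known as ectodin or USAG-1. Its levels were 6.02, 5.25 and 5.20 in SKPs, 11.52, 10.86 and 10.69 in SKP-derived cells and 11.96, 12.21 and 10.86 in nerve cells. Both Schwann cell groups lay far above SKPs and overlapped each other. Sostdc1 was 5.53 higher in SKP-derived cells than in SKPs (SE 0.38, limma adjusted p = 8.91e-06), 46.3-fold, and 6.19 higher in nerve cells (limma adjusted p = 5.12e-06; 5.94 after loess), 72.8-fold. SKP-derived cells differed from nerve cells by -0.65 (interval -1.50 to 0.19, limma adjusted p = 0.181; -0.44 after loess). Without nerve array 3, the lowest of its group, that difference was -1.06 and was called (limma adjusted p = 0.0404).

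Smad6 and Smad7, which block receptor and Smad signalling from inside the cell, had the smallest SDs of the 10 genes in SKPs, 0.21 and 0.30. Smad6 was at 8.05, 8.21 and 7.79 in SKPs, 5.42, 5.60 and 5.79 in SKP-derived cells and 6.08, 6.12 and 6.25 in nerve cells. Smad7, which acts on TGF-beta signals as well, was at 8.10, 8.34 and 7.74 in SKPs, 5.03, 5.18 and 4.67 in SKP-derived cells and 5.49, 5.48 and 5.56 in nerve cells. For both genes the 3 groups did not overlap, in the order SKPs, nerve cells, SKP-derived cells. In SKP-derived cells Smad6 fell by 2.42 (SE 0.15, limma adjusted p = 6.7e-06) and Smad7 fell by 3.10 (SE 0.19, limma adjusted p = 5.21e-06). In nerve cells Smad6 fell by 1.87 (limma adjusted p = 2.18e-05; -2.44 after loess) and Smad7 fell by 2.55 (limma adjusted p = 1.19e-05; -3.21 after loess). The step from nerve to SKP-derived cells, -0.55 for each gene (limma adjusted p = 0.0197 for Smad6 and 0.039 for Smad7), was -0.05 and 0.00 after loess (limma adjusted p = 0.88 and 0.992).

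The Id genes did not move as a group. Id1, a direct BMP target in many cell types, had levels of 9.71, 8.42 and 7.31 in SKPs, 6.0, 6.21 and 5.97 in SKP-derived cells and 6.40, 6.38 and 6.19 in nerve cells. The SKP arrays had an SD of 1.20, the largest of the 10 genes in any group, and still lay above every Schwann cell array. Id1 fell by 2.42 in SKP-derived cells (SE 0.47, limma adjusted p = 0.00285) and fell by 2.16 in nerve cells (limma adjusted p = 0.003; -2.64 after loess). With SKP array 1 left out the difference of SKP-derived cells was -1.80, and with SKP array 3 left out it was -3.00. The Schwann cell groups overlapped and differed by -0.26 (interval -1.31 to 0.80, limma adjusted p = 0.669; 0.19 after loess).

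Id3 was at 9.81, 9.05 and 8.42 in SKPs and at 8.33, 8.05 and 6.66 in SKP-derived cells. All 3 nerve arrays had 8.51, an equality shared by 298 genes (2.05% of those tested), so the SD of 0.00 for nerve cells is no measure of their spread. SKPs overlapped nerve cells and lay just above SKP-derived cells. Id3 fell by 1.42 in SKP-derived cells (SE 0.44, limma adjusted p = 0.0279). The call was lost without SKP array 1 (-1.06, limma adjusted p = 0.0954), without SKP array 2 (-1.44, limma adjusted p = 0.0633), without SKP-derived array 3 (-0.91, limma adjusted p = 0.0678) and with the nerve arrays left out (limma adjusted p = 0.0636). The difference of nerve cells from SKPs was -0.59 (limma adjusted p = 0.265; -0.87 after loess) and that of SKP-derived from nerve cells -0.83 (limma adjusted p = 0.148; -0.53 after loess).

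Id2 alone among the 10 genes was higher in SKP-derived Schwann cells than in both other groups. Its levels were 11.66, 11.77 and 11.91 in SKP-derived cells, 11.03, 10.57 and 10.32 in nerve cells and 9.98, 9.93 and 10.50 in SKPs. The SKP-derived arrays were all above the rest, and nerve cells overlapped SKPs. Id2 was 1.65 higher in SKP-derived cells than in SKPs (SE 0.21, limma adjusted p = 0.000302), 3.13-fold. It was 1.14 higher in SKP-derived than in nerve cells (SE 0.21, limma adjusted p = 0.00439), 2.21-fold, and 1.23 higher after loess (limma adjusted p = 0.0326). That call held under all 4 scalings tried and without each array in turn, as did calls for 0.303% of all genes in the upward direction. The difference of nerve cells from SKPs was 0.50 and was not called (limma adjusted p = 0.0626; 0.29 after loess), but it was called without SKP array 3 (0.69, limma adjusted p = 0.0167) or nerve array 3 (0.66, limma adjusted p = 0.0346).

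**Figure D2:**
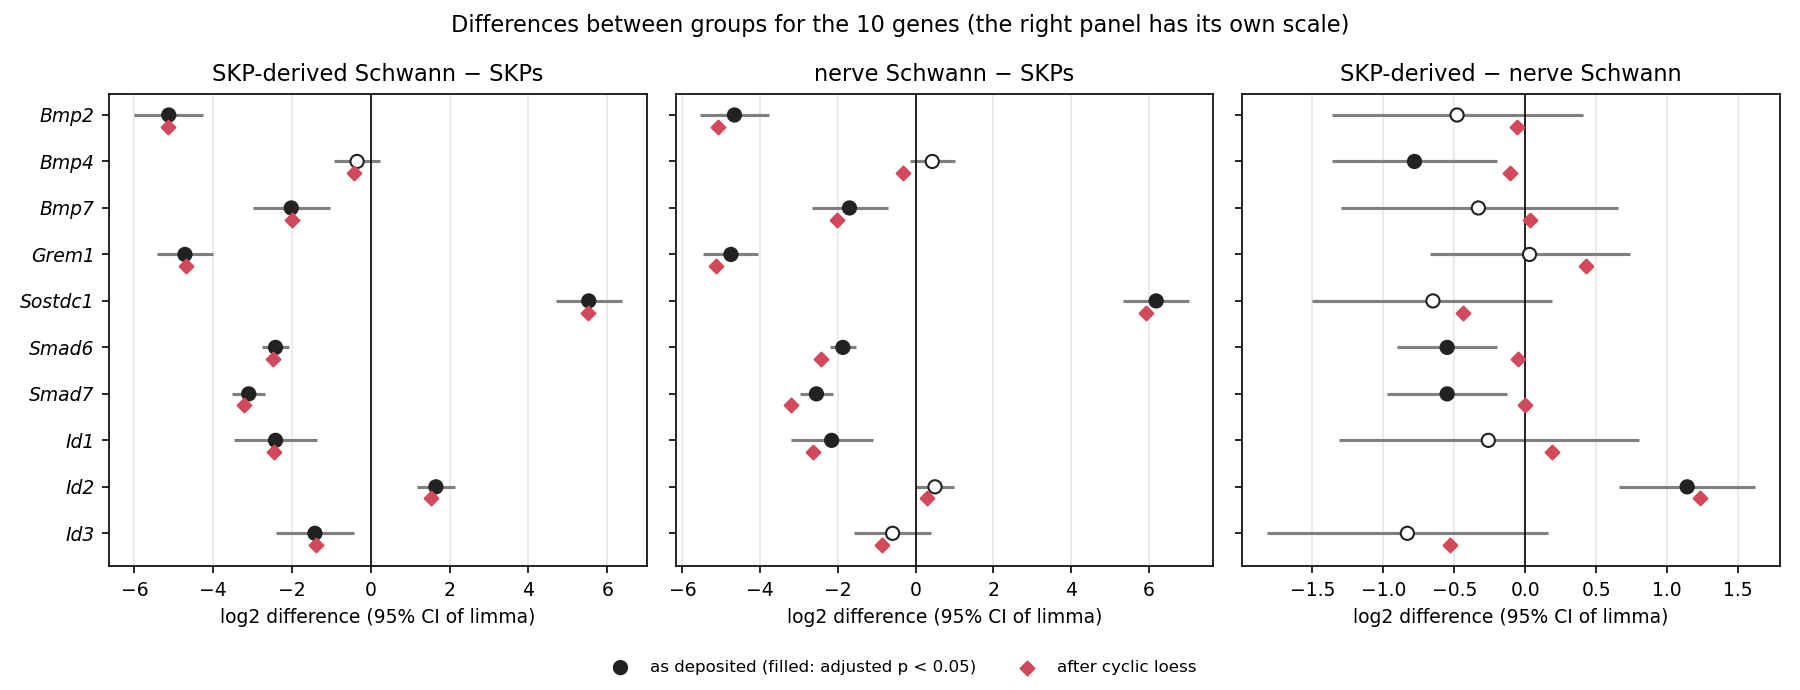
Log2 differences of the 10 genes in the 3 comparisons, with dots for the deposited values (filled where called), lines for the 95% confidence interval from limma and diamonds for the difference after cyclic loess; the right panel has its own scale. The large differences from SKPs keep their place after loess, whereas in the right panel only Id2 is called on both scales.

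Between the Schwann cell groups, 3 of the 10 genes (Bmp4, Smad6 and Smad7) were called lower and 1 (Id2) higher in SKP-derived cells as deposited, against 42.3% and 1.33% of all genes (43.7% either way). The groups did not overlap for 6 of the 10, against 62.3% of all genes. The median difference of the 10, -0.51, lay near that of all genes, -0.45. After loess 1 was called higher, again Id2, and the other 9 were not called, against 0.731% of all genes called higher and 0.600% lower. The stricter rule that a call hold under all 4 scalings and without each array was met by Id2 alone, upward, and by 0.352% of all genes downward. The loess median was -0.02 for both the 10 genes and all genes.

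Array 3 of the SKPs had the lowest value of its group for 8 of the 10 genes, against 35.5% of all genes, and the highest for Bmp4 and Id2. The mean of the 12 dermal mesenchymal markers was also lowest there (11.58, 11.51 and 10.12 on arrays 1 to 3). The mean of 10 macrophage markers was 7.73, 6.19 and 5.52 on the same arrays. Bmp2, Sostdc1, Id1 and Id3 were likewise highest on array 1 and lowest on array 3, Sostdc1 by little (5.25 and 5.20 on arrays 2 and 3). Bmp7, Grem1, Smad6 and Smad7 were instead highest on array 2. Of all genes 33.8% were highest on array 1 and 28.2% on array 2. The macrophage markers were at 5.14 to 5.42 in SKP-derived cells and 5.86 to 5.94 in nerve cells. In SKP-derived cells 2 of the 10 markers were called lower than in SKPs, near the 22.3% of all genes. Of the mesenchymal markers 8 of 12 were called lower in each Schwann cell group than in SKPs. Of all genes 22.3% were called lower in SKP-derived cells and 14.9% in nerve cells as deposited. The lowest value of any mesenchymal marker on any array was 5.34. The part of either cell type in the levels of the 10 genes was not tested. Without SKP array 3 the differences of SKP-derived cells from SKPs were larger for Bmp2 (-5.67), Grem1 (-5.13), Bmp7 (-2.42) and Id3 (-1.75), and the counts of called genes stayed at 7 and 2. Among SKP-derived arrays, array 2 had the highest mesenchymal mean (7.70, 9.88 and 8.68), and it was the highest of its group for 5 of the 10 genes and the lowest for 0, against 38.4% and 36.4% of all genes. Leaving it out kept the counts at 7 and 2.

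The rest of the pathway gave 68 measured genes of 82 listed, grouped by role. In SKP-derived cells against SKPs 18 were called lower and 10 higher, against 22.3% and 19.3% of all genes, with a median difference of -0.07 against -0.01 over all genes. In nerve cells against SKPs 13 were lower and 29 higher as deposited, against 14.9% and 49.7% of all genes, and 21 lower and 12 higher after loess, against 25.6% and 22.4%. A stricter count, of genes called under all 4 scalings and without each array in turn, was added after the values were seen. It gave 12 lower and 5 higher in SKP-derived cells, where 16.3% and 13.0% of all genes met it, and 9 lower and 6 higher in nerve cells, where 11.0% and 15.3% did. Of the 10 genes themselves, 6 lower and 2 higher met it in SKP-derived cells, and 6 lower and 1 higher in nerve cells.

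Of 12 other BMP and GDF ligands, 4 fell and 2 rose in SKP-derived cells, against 22.3% and 19.3% of all genes. Bmp3, an atypical ligand that opposes other BMPs in bone, and its relative Gdf10 fell furthest. Bmp3 had a mean of 8.16 ± 0.84 (SD, n = 3) in SKPs and fell by 2.34 in SKP-derived cells (limma adjusted p = 0.000933) and fell by 2.54 in nerve cells (limma adjusted p = 0.000367; -3.12 after loess). Gdf10, at 8.0 ± 0.57 in SKPs, had differences of -2.24 and -2.31 (limma adjusted p = 0.000112 and 6.93e-05), the latter -2.90 after loess. Gdf11 was 0.83 higher in SKP-derived cells (limma adjusted p = 0.0287) and Gdf6 1.32 lower (limma adjusted p = 0.0495). Both of these calls ended when any of several single arrays was left out. Bmp6 was called higher in nerve cells as deposited (1.11, limma adjusted p = 0.012) and not after loess (0.51, limma adjusted p = 0.199).

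The receptors were lower or not called in SKP-derived cells, with 5 of 11 called lower and the other 6 not called by limma. Of all genes 22.3% were called lower and 19.3% higher there. Acvr1, a type I BMP receptor also known as ALK2, fell from 9.41 ± 0.32 in SKPs by 1.45 in SKP-derived cells (limma adjusted p = 0.000203) and by 0.91 in nerve cells (limma adjusted p = 0.00162; -1.18 after loess). Acvrl1, the type I receptor of endothelium known as ALK1, fell by 1.28 in SKP-derived cells (limma adjusted p = 0.00756). The co-receptor endoglin, Eng, was 1.97 lower there (limma adjusted p = 0.0192), but not called when SKP array 1 or 2 or SKP-derived array 1 or 3 was removed (limma adjusted p = 0.0607 to 0.0673). In nerve cells the difference of Eng from SKPs was -2.35 (limma adjusted p = 0.00485) and -2.63 after loess. That call held without each array in turn. Bmpr1a, the widely used type I receptor, was at 10.02 ± 0.14 in SKPs, 9.84 ± 0.28 in SKP-derived cells and 10.20 ± 0.17 in nerve cells, and none of its 3 differences was called. Bmpr2, the type II receptor, was 1.04 higher in nerve cells than in SKPs (limma adjusted p = 0.000341; 0.82 after loess) and 0.36 higher in SKP-derived cells, where it was not called (limma adjusted p = 0.0835). Acvrl1 and Eng are best known in endothelium. The mean of 7 endothelial markers was 5.03 to 5.21 on SKP arrays, 5.28 to 5.56 on SKP-derived arrays and 6.11 to 6.20 on nerve arrays. After loess these ranges were 5.35 to 5.46, 5.47 to 5.73 and 5.71 to 5.78. The part of endothelial cells in the levels of Acvrl1 and Eng was not tested.

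Among 13 other antagonists and modulators 3 fell in SKP-derived cells, near the 22.3% of all genes called lower. The other 10 were not called by limma. Nbl1, a secreted antagonist of the same family as Grem1, was at 11.41 ± 0.71 in SKPs and fell by 2.72 (limma adjusted p = 0.000167), and in nerve cells it fell by 2.05 (limma adjusted p = 0.000494; -2.29 after loess). Chrd, the ligand trap chordin, fell by 0.89 in SKP-derived cells (limma adjusted p = 0.00376), and Nog, noggin, by 0.89 (limma adjusted p = 0.0392). The Nog call ended when any array but SKP array 3 was left out (limma adjusted p = 0.0573 to 0.126). Sost, which encodes sclerostin and is the closest relative of Sostdc1, was not called in SKP-derived cells (0.17, limma adjusted p = 0.318) and was called 0.81 higher in nerve cells (limma adjusted p = 0.000514; 0.36 after loess, limma adjusted p = 0.0342).

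Smad effectors and regulators went both ways, with 5 of 13 higher and 2 lower in SKP-derived cells, against 19.3% and 22.3% of all genes. Zeb2, a Smad-binding repressor needed for Schwann cell maturation and myelination, rose from 9.53 ± 0.15 in SKPs by 2.22 in SKP-derived cells (limma adjusted p = 1.52e-05) and by 2.67 in nerve cells (limma adjusted p = 5.84e-06; 2.47 after loess). Hivep2 and Hivep3, zinc finger proteins of the Schnurri family, were 1.15 and 1.54 higher in SKP-derived cells (limma adjusted p = 0.000266 and 0.000365) and 1.59 and 2.00 higher in nerve cells (1.32 and 1.67 after loess). Smurf1, a ubiquitin ligase that targets BMP Smads, was 0.63 higher in SKP-derived cells (limma adjusted p = 0.0102) and 1.53 higher in nerve cells (1.28 after loess). Zfp423, a Smad1 and Smad4 partner, fell by 2.53 and 2.42 (limma adjusted p = 5.61e-06 and 6.24e-06), the latter -2.84 after loess.

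The Smads that carry the signal had smaller differences from SKPs than Smad6 and Smad7. Smad1 was at 9.06 ± 0.14 in SKPs, 8.60 ± 0.14 in SKP-derived cells and 9.65 ± 0.23 in nerve cells. Its difference between the Schwann cell groups was -1.05 (limma adjusted p = 0.00238; -0.81 after loess, limma adjusted p = 0.0264), while its call of -0.46 against SKPs (limma adjusted p = 0.04) ended when most single arrays were left out. Smad5 was 0.28 higher in SKP-derived cells than in SKPs and was not called (limma adjusted p = 0.173). Smad4 was 0.49 higher as deposited (limma adjusted p = 0.0259) and 0.36 higher after loess, where it was not called (limma adjusted p = 0.0666). In nerve cells Smad4 and Smad5 were 0.91 and 0.73 higher than in SKPs (limma adjusted p = 0.000635 and 0.00252). After loess these differences were 0.70 and 0.48 (limma adjusted p = 0.00319 and 0.0233), and each was called under 3 of the 4 scalings. Smad1 was 0.59 higher in nerve cells (limma adjusted p = 0.00838) and not called after loess (0.33, limma adjusted p = 0.0551).

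Of 16 other BMP target genes, 3 fell and 2 rose in SKP-derived cells, against 22.3% and 19.3% of all genes. Msx2, a homeobox target of BMP signals, fell by 1.16 in SKP-derived cells (limma adjusted p = 0.00702), and fell by 1.30 in nerve cells (limma adjusted p = 0.00222; -1.88 after loess). Hey1, a repressor that Notch signals induce as well, rose by 1.57 in SKP-derived cells (limma adjusted p = 0.000479) and by 3.69 in nerve cells (limma adjusted p = 4.8e-06; 3.34 after loess). It was 2.12 lower in SKP-derived than in nerve cells (limma adjusted p = 0.00192; -1.74 after loess, limma adjusted p = 0.0168), the only one of the 68 genes called between the Schwann cell groups under all 4 scalings and without each array. Msx1 was at 6.07 ± 0.17 in SKPs and 5.83 ± 0.15 in SKP-derived cells and was not called (limma adjusted p = 0.225). Id4, the remaining Id gene, was 0.97 higher in SKP-derived cells and was not called (limma adjusted p = 0.0924), although it was without SKP-derived array 2 (1.49, limma adjusted p = 0.00431). Runx2, the osteoblast regulator, was 1.67 higher in nerve cells than in SKPs (limma adjusted p = 0.00182; 1.42 after loess). Junb was 0.81 lower in SKP-derived cells (limma adjusted p = 0.0486), a call that 7 single arrays could each end. In nerve cells the difference of Junb from SKPs was -1.07 (limma adjusted p = 0.00941) and -1.33 after loess. That call held without each array in turn. Of the E proteins that Id proteins bind, Tcf4 fell by 1.29 and 1.32 in SKP-derived and nerve cells (limma adjusted p = 0.00344 and 0.00176; -1.55 after loess in nerve cells). Tcf12 rose by 0.52 and 0.80 (limma adjusted p = 0.0257 and 0.00175; 0.41 and 0.58 after loess), though its call in SKP-derived cells was lost without any of 4 single arrays. Tcf3 was not called in either (0.11 and 0.36).

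**Figure D3:**
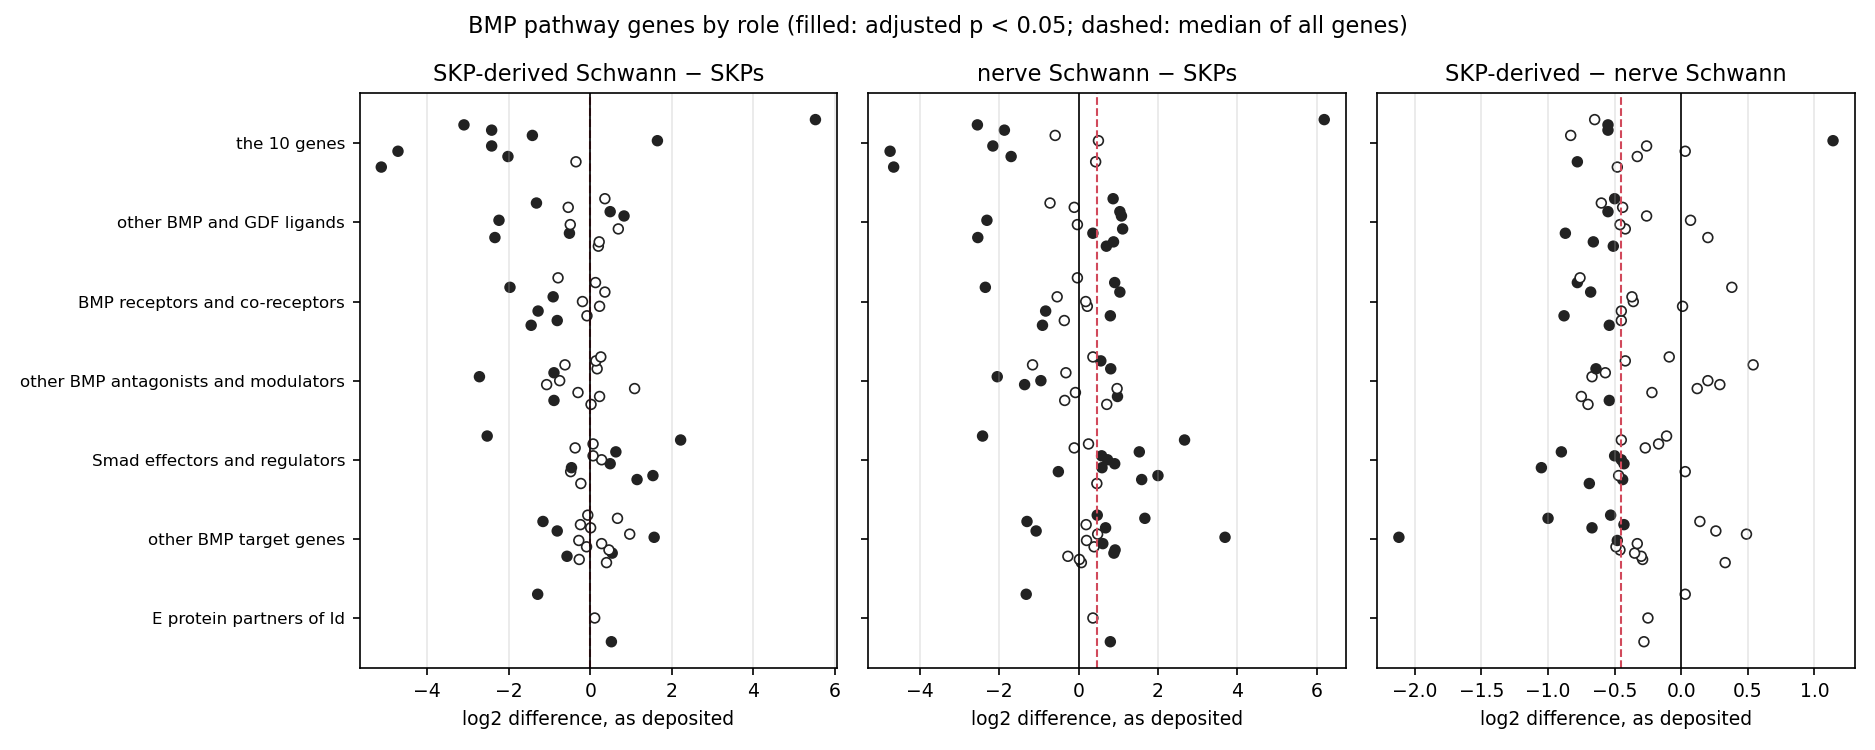
Log2 differences, as deposited, of the 10 genes and of the 68 other pathway genes by role, with 1 dot per gene (filled where called) and a dashed line at the median of all genes. In both comparisons with SKPs the 10 genes reach further left (Bmp2 and Grem1) and further right (Sostdc1) than the genes of every other list, and in the right panel most genes lie around the dashed line at -0.45. The 10 genes and the lists were picked with earlier results of these data known.

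Promoter sequences from RefSeq (assembly GRCr8) were available for 6 of the 10 genes, as the 250 bases before the annotated start. These were searched on both strands for GGCGCC, a GC-rich element bound by BMP Smads, and CAGAC, the short Smad box, both printed in capitals. GGCGCC occurred in 8.69% of 33469 rat promoter windows of this length and CAGAC in 42.9%. The windows of Smad7 and Grem1, which fell furthest among the 6 genes with a sequence, and of Id1 and Id2, which moved in opposite directions, are shown 5′ to 3′ on each gene's strand.
Smad7 (chr18:71263258-71263507, plus strand): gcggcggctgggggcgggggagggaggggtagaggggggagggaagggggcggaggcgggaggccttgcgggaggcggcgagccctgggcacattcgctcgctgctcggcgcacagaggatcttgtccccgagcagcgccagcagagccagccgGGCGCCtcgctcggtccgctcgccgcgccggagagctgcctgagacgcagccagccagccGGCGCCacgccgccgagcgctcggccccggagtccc
Grem1 (chr3:120978320-120978569, minus strand): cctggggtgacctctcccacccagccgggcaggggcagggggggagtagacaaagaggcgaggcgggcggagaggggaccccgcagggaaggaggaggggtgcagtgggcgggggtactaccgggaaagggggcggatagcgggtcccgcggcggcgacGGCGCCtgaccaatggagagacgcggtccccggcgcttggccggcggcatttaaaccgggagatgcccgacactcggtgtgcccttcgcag
Id1 (chr3:161671314-161671563, plus strand): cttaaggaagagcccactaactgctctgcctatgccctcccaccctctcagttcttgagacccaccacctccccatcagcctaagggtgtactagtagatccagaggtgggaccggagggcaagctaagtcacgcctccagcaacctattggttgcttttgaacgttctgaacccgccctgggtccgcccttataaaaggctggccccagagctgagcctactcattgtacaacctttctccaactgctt
Id2 (chr6:47470996-47471245, minus strand): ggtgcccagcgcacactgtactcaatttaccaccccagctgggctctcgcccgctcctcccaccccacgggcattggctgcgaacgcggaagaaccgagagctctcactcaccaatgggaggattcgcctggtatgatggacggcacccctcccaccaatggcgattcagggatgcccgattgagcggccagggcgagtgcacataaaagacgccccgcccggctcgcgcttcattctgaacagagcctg
Smad7 held 2 GGCGCC matches, whose first bases lay 96 and 36 bases before the start, and Grem1 held 1, at 91 bases. Bmp4 held 2 CAGAC matches and 0 of GGCGCC. No match of either motif lay in the windows of Id1, Id2 and Id3, which says only that these letters are not in these 250 bases. A match is a description of the sequence, not evidence of binding. Smad7 and Grem1 shared one, and their windows are also GC-rich (78% and 72% GC, against 54.8% for Id1 and 62.8% for Id2). GGCGCC consists of G and C only, and its share of 8.69% is over all windows, not windows matched for GC content.

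For 5 of the 10 genes, the other genes with the most similar array profiles were found by the root mean square distance between profiles. Each profile was centred on its mean over the 9 arrays. The 10 genes themselves were left out, so none of them could be listed as near another. Genes chosen for closeness over these arrays share group patterns by that choice. For Bmp2 these were Ltbp1, a TGF-beta binding matrix protein (distance 0.273), the calmodulin regulator Pcp4 (0.379) and the macrophage elastase Mmp12 (0.441). For Grem1 they were the interleukin receptor Il13ra2 (0.234), Ltbp1 (0.366) and the axon guidance factor Sema3a (0.378). Bmp2 and Grem1 thus shared Ltbp1 among their nearest genes outside the 10. Its mean was 11.00 ± 0.52 in SKPs, 5.86 ± 0.41 in SKP-derived cells and 6.44 ± 0.31 in nerve cells. The nearest genes of Sostdc1 were Lrrtm2, a synaptic adhesion protein (0.426), the sodium channel Scn7a (0.465) and Mbp, myelin basic protein (0.496). Mbp rose from 5.23 ± 0.30 in SKPs to 11.08 ± 0.50 and 11.07 ± 0.52 in SKP-derived and nerve cells. For Smad7 the nearest were Vasn (0.147), Sema3f (0.159) and the lipid carrier Apoe (0.192), which after loess ranked 6, 3 and 30. For Id1 they were Olfm1 (0.266), the caveolin Cav2 (0.275) and the matrix link protein Hapln1 (0.289), which after loess ranked 1, 6 and 16. For Bmp2, Grem1 and Sostdc1 the 3 nearest genes kept their ranks after loess.

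**Figure D4:**
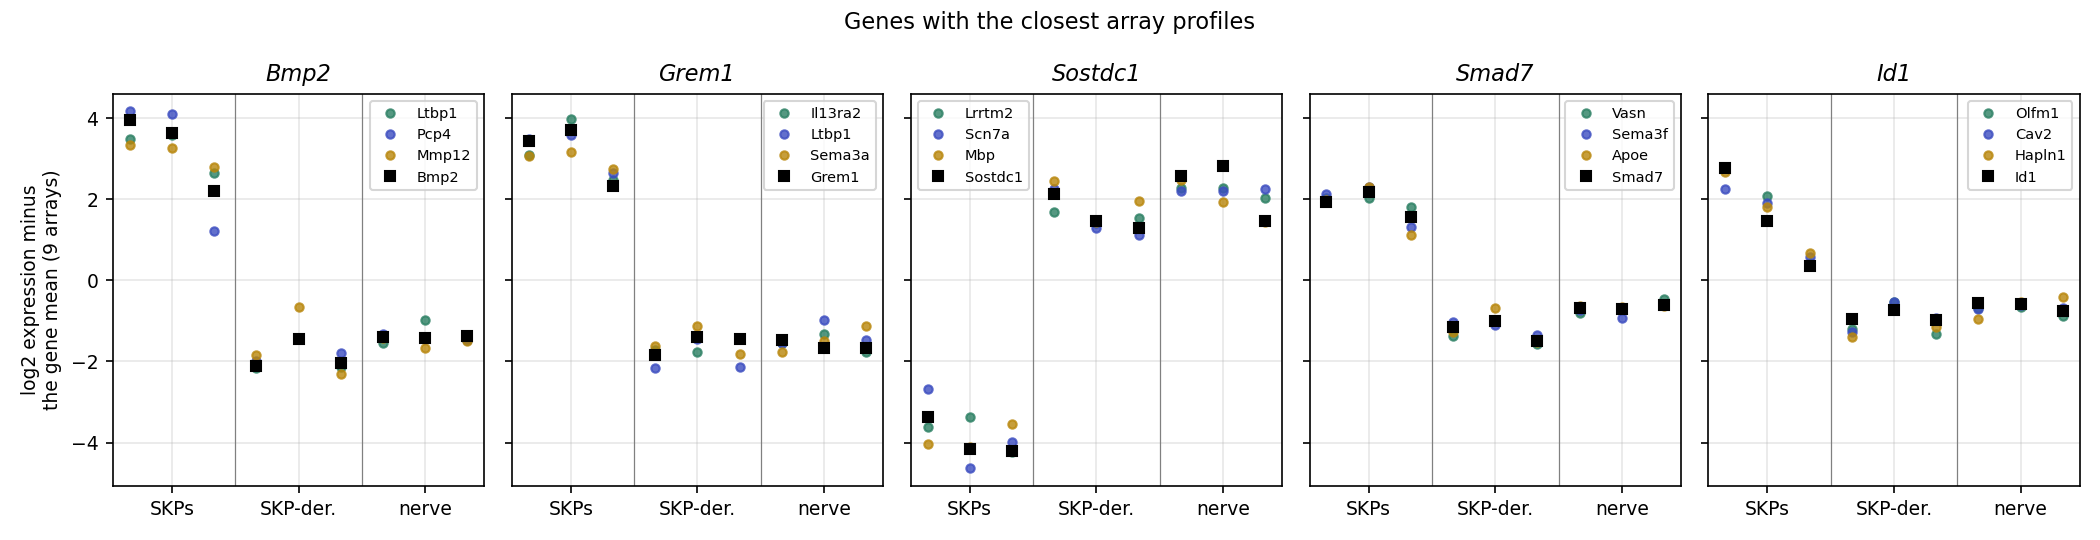
Log2 expression minus the gene's mean over 9 arrays, with arrays 1 to 3 from left to right in each group. Squares are 5 of the 10 genes and circles the 3 genes outside the 10 with the closest profile to each. The neighbours of Bmp2, Grem1, Smad7 and Id1 are high in SKPs and those of Sostdc1 low. Among the SKP arrays, all neighbours of Bmp2, Grem1, Smad7 and Id1 are lowest on array 3, as are those genes themselves. The neighbours were chosen for closeness over these same arrays. That choice favours shared group levels and a shared low value on array 3, so neither is a separate finding.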

How the data were processed

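RNA of 9 cultures was hybridised to Affymetrix Rat Gene 1.0 ST arrays. The authors deposited log2 expression values; the submitters' processing notes name RMA and Affymetrix Expression Console, without versions, and no source used here says whether all arrays were summarised together. Of 29214 features, 15310 had 1 gene symbol in GEO's platform annotation, 323 several and 13581 none. For the 527 genes with several features, that of the highest mean stood for the gene, which left 14506 genes. Group means were fitted to all 9 arrays with limma 3.58.1 in R 4.3.3, with moderated tests and Benjamini-Hochberg adjustment over all genes. The fit was tested on simulated data, in the comparison of nerve cells with SKPs. It recovered 60 of 100 genes changed by 1 on the log2 scale and 97 of 100 changed by 2. A gene not called may therefore still differ. The 3 samples of a group are described by the labels as independent, and 3 arrays a group limit the precision. The 10 genes and the pathway and marker lists were chosen with earlier results of these data known. Beyond the 10, the rule named up to 4 called genes per list and comparison with the largest differences, 10 pathway genes whatever their values, and the 3 genes closest in profile to 5 of the 10; not every gene it allowed is named. Alternatives were median centring, quantile and cyclic loess scaling, 2 feature rules, a filter on low genes, fits to 2 groups, array weights, trended robust variances, a stricter threshold, a replicate block and leaving out each array. The main fit used no pairing. Correlations of deviations between same-numbered samples ran from -0.124 to 0.289, a check that covers pairing by replicate number only.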

Additional observations from a re-analysis of the deposited data

Results flagged for a closer look

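For 4 of the 10 genes the change from SKPs differed between the Schwann cell groups by a test of the difference itself, the limma contrast of SKP-derived minus nerve Schwann cells, in which SKPs cancel. Of all genes 43.7% were called in that contrast as deposited, so 4 of 10 is near the background. The value was 1.14 for Id2 (limma adjusted p = 0.00439), with all 3 SKP-derived arrays above all 3 nerve arrays, and 1.23 after cyclic loess (limma adjusted p = 0.0326). It was -0.78 for Bmp4, -0.55 for Smad6 and -0.55 for Smad7 (limma adjusted p = 0.0362, 0.0197 and 0.039), also without overlap, as for 62.3% of all genes. After loess these were -0.11, -0.05 and 0.00 and none of the 3 was called (limma adjusted p = 0.852, 0.88 and 0.992).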

How the results depend on the processing

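The differences of Bmp2, Bmp7, Grem1, Sostdc1, Smad6, Smad7 and Id1 from SKPs kept their direction and their calls under every alternative that tested them; the filter on low genes left some untested. Over single genes, 531 of the values under alternatives kept direction and side of the threshold, 27 lost the call, 8 gained one and 19 reversed. The cause of each change was not tested, other than that the filter on genes below the median level removes genes. Members called lower numbered 3 in SKP-derived cells against SKPs and 2 in nerve cells against SKPs under that filter; members called higher in nerve cells numbered 3 with array weights and 1 to 3 over the left-out arrays. Between the Schwann cell groups, members called lower were 0 at an adjusted p under 0.01, after loess, median centring or quantile normalisation and with the filter, and 0 to 3 over the left-out arrays. Other pathway genes called higher in SKP-derived cells against SKPs numbered 4 at an adjusted p under 0.01, 5 after median centring, 6 in the fit to 2 groups and 5 to 12 over the left-out arrays (5 without SKP array 1, 6 without SKP-derived array 1); those called lower numbered 10 at an adjusted p under 0.01 and 10 with the filter. In nerve cells against SKPs, those higher numbered 12 after loess, 6 after median centring, 13 after quantile normalisation and 14 with the filter, and those lower 21, 27, 23 and 8. Between the Schwann cell groups, those lower numbered 24 as deposited, 10 at an adjusted p under 0.01, 41 with array weights, 2 after loess, 1 after median centring, 2 after quantile normalisation, 5 with the filter and 11 to 32 over the left-out arrays (13, 11 and 12 without nerve arrays 1, 2 and 3). Those higher numbered 3 with array weights, 1 each after loess, median centring and quantile normalisation and in the fit to 2 groups, and 0 to 2 over the left-out arrays (1 without SKP array 2, 2 without SKP-derived array 2). Values with a reversed sign were as follows. For Bmp4 in nerve cells against SKPs the value was -0.32 after loess, -0.17 after median centring and -0.31 after quantile normalisation, and for Id2 -0.10 after median centring. Between the Schwann cell groups the values after loess, median centring and quantile normalisation were 0.03, 0.14 and 0.08 for Bmp7 and 0.19, 0.21 and 0.29 for Id1. Smad7 was at 0.00 after loess and 0.08 after quantile normalisation, and quantile normalisation gave 0.14 for Bmp2 and 0.03 for Smad6. Over the left-out arrays Bmp7 ran from -0.56 to 0.10 (without SKP-derived array 1). Grem1 was at -0.12 with array weights and ran from -0.05 (without SKP-derived array 2) to 0.18, with -0.02 without SKP-derived array 3 and 0.00 without nerve array 3. With replicate number as a block the members' counts kept their values (7 lower and 2 higher, 6 and 1, 3 and 1), and other pathway genes called lower numbered 21 in SKP-derived and 14 in nerve cells against SKPs. Nerve arrays held equal values at many features, and whether this understates their spread was not tested. No signal over background was used here.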
